A study of Mus musculus with 64 samples.

Results

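The genes described here are 10 genes of the mammary luminal lineage and of hormone reception, Esr1, Pgr, Prlr, Foxa1, Gata3, Elf5, Kit, Cited1, Aldh1a3 and Sox9. They were chosen by name, and all 10 were found among the 55385 genes counted. Their RNA was measured by stranded total RNA sequencing, after removal of ribosomal RNA, in 8 primary mammary tumors of 4 female mice. All 4 mice carried the PyMT transgene, which expresses the polyoma middle T antigen in the mammary gland and gives rise to tumors there, and floxed Abi1, the gene of an adaptor protein of the WAVE actin regulatory complex. The PyMT and floxed Abi1 lines were C57BL6, and the line with MMTV-driven Cre recombinase, which deletes floxed Abi1 in mammary epithelium, was of mixed strain. Mouse G144, with 1 floxed allele and no Cre (fl/wt, Cre-), gave tumors 6 and 8 and served as control of mouse G164 (fl/wt, Cre+), the heterozygous KO, which gave tumors 3 and 6. Mouse G184, with both alleles floxed and no Cre (fl/fl, Cre-), gave tumors 6 and 9 and served as control of mouse G174 (fl/fl, Cre+), the homozygous KO, which gave tumors 1 and 6. By the pathology records of the study, G144 and G174 were of the same age and G164 and G184 were older. Each genotype was a single mouse, so genotype and mouse cannot be told apart, and the spread behind each p-value is that of tumors within mice.

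The mammary gland has a basal layer and a luminal layer. Luminal cells that sense hormones carry the estrogen receptor (Esr1), the progesterone receptor (Pgr) and the prolactin receptor (Prlr) together with Foxa1, and pass the hormonal signal to their neighbours through secreted factors. Luminal progenitor and alveolar cells carry little estrogen receptor and are marked by Kit, Elf5 and Aldh1a3, and Gata3 maintains the luminal fate as a whole.

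Totals over genes ran from 50346075 to 69264893 counts per tumor. The members had between 359 counts (Aldh1a3) and 61875 counts (Kit) in a tumor, so that counting error was at most 5.28%. Values are given as CPM, a gene's counts relative to the total of its library after TMM scaling. Abi1 itself, the check of the labels, was at 111 and 130 CPM in G144, 63.1 and 66.7 in G164, 114 and 122 in G184, and 8.92 and 6.47 in G174. Markers of luminal epithelium (a list of 15 genes with keratins and Epcam) summed to between 5250 and 6120 CPM in the 8 tumors, so every library held epithelial RNA. Skeletal muscle genes stood out in tumor 8 of G144 (a sum of 264 CPM over 8 genes) and tumor 3 of G164 (333 CPM), against 1.75 to 3.09 CPM elsewhere.

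Per exon length, which allows levels to be compared between genes, Kit was the most abundant member, with a median over the 8 tumors of 55.8 CPM per kb. Elf5 followed at 35.3, Gata3 at 28.5, Sox9 at 19.2 and Prlr at 15.6 CPM per kb. Lower levels were found for Cited1 (7.76 CPM per kb), Aldh1a3 (6.92), Foxa1 (4.77), Pgr (2.94) and Esr1 (2.22). In CPM, without division by length, Kit was also highest (median 497). There Esr1 (30.3) was above Pgr (25.2), Foxa1 (15.9) and Cited1 (13.6) and below the other members. The order from Elf5 to Cited1 was the same in 8 of 8 tumors for each pair of neighbours, and Kit exceeded Elf5 in 7 of 8. Cited1 and Aldh1a3, with the former higher in 4 of 8 tumors, and Aldh1a3, Foxa1 and Pgr, with the former of each pair higher in 5 of 8, did not separate beyond the spread between tumors.

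**Figure D1:**
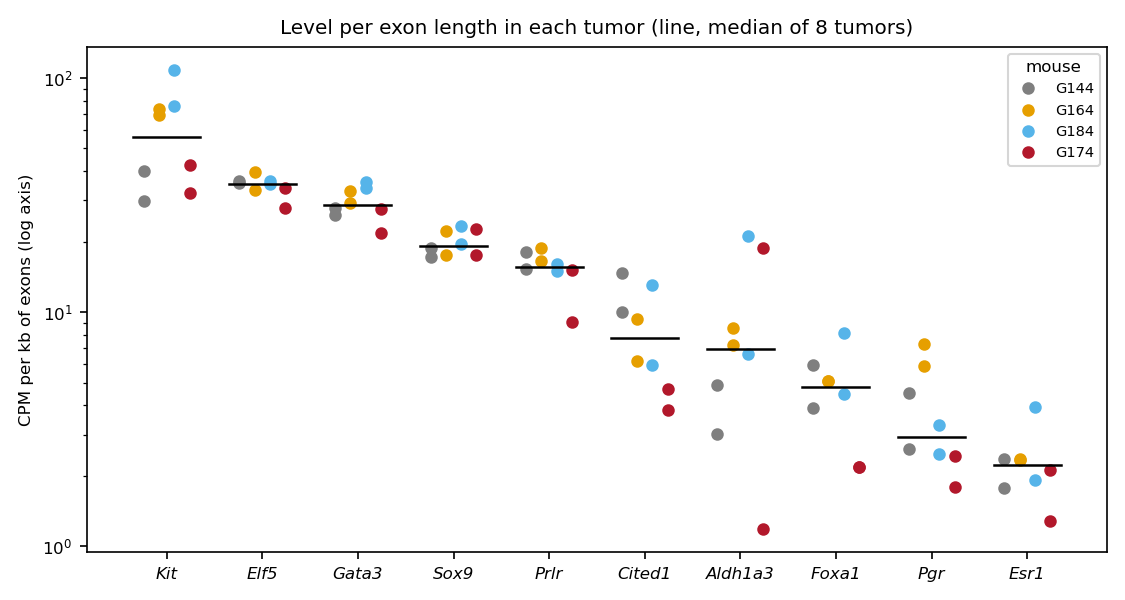
Level of each gene in CPM per kb of exons (vertical log axis) in the 8 tumors, coloured by mouse, with the median as a line. Kit, at 55.8 CPM per kb, leads the order and Esr1, at 2.22, closes it.

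The main question was how these genes differ between tumors with loss of 1 or of both Abi1 alleles and the respective controls. In the homozygous comparison (G174 against G184) Foxa1 and Kit fell, to 0.345 and 0.407 of the mean control level, and the fitted change was below 0 for 10 of 10 members with TMM, with DESeq2 size factors, with library size and in unscaled sums. In the heterozygous comparison (G164 against G144) no member passed the threshold, an adjusted p under 0.05 in the quasi-likelihood test of edgeR, and the fitted change was above 0 for 9 of 10 with TMM, DESeq2 size factors and library size, while in unscaled sums Elf5 was at -0.05, Foxa1 at -0.01 and Prlr at 0.00. Of all genes tested, 49.9% had a fitted change above 0 in the homozygous and 51.4% in the heterozygous comparison with TMM. The scalings use the same tumors, and the members are not independent units, so these counts of signs are a description. The difference between both changes passed for Foxa1, Gata3 and Kit.

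**Figure D2:**
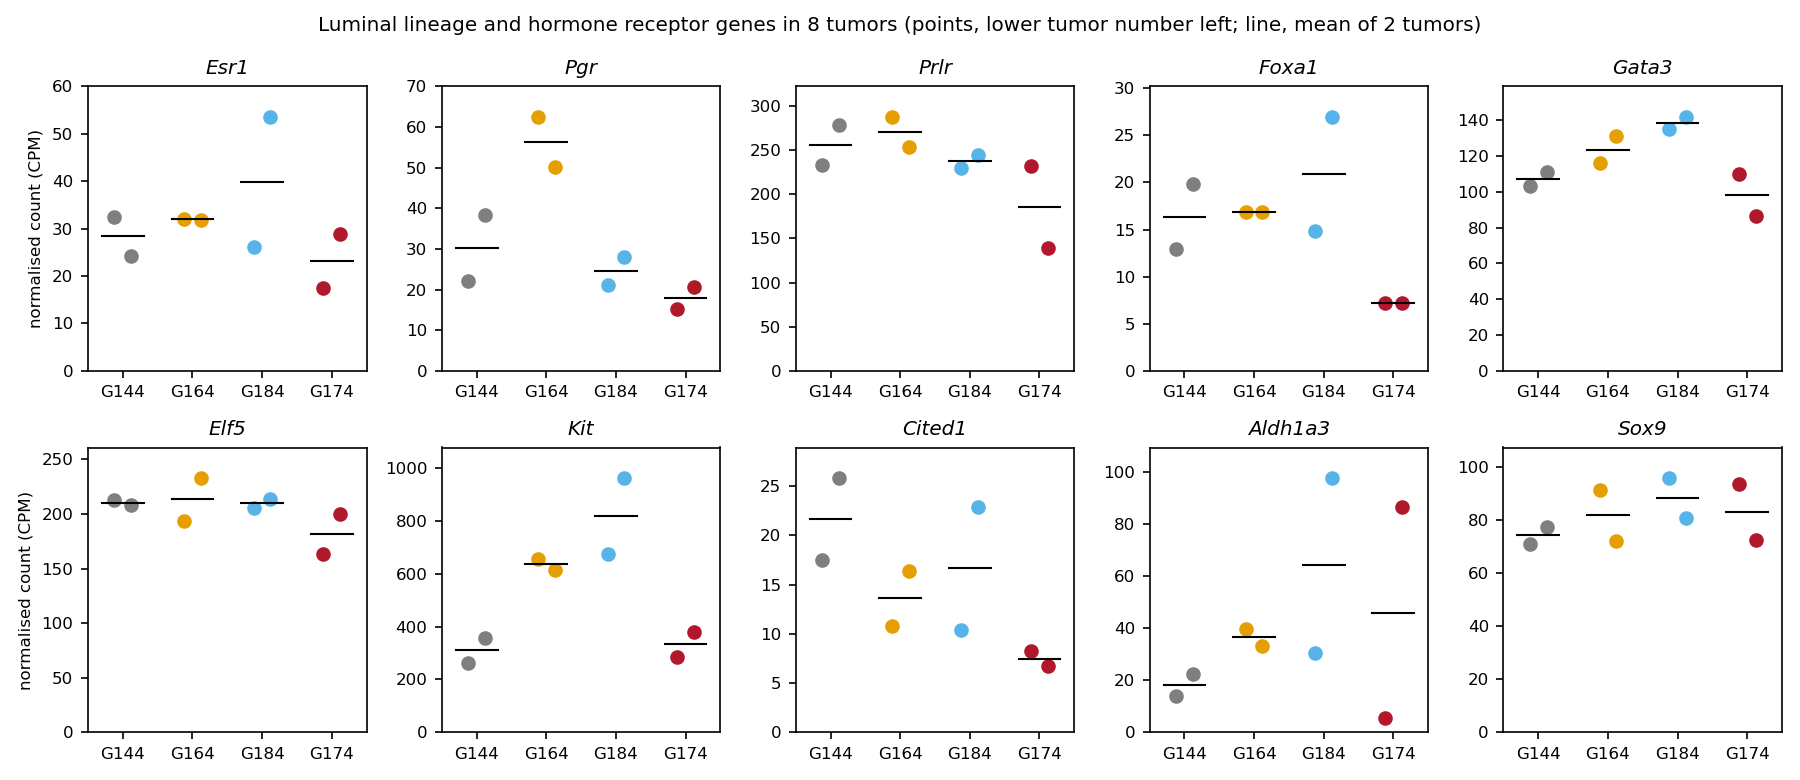
CPM of the 10 genes (vertical axes from 0) in each tumor, as points grouped by mouse, with the mean of the 2 tumors as a line. Both G174 tumors lie below the other 6 for Pgr, Foxa1 and Cited1, and Kit is higher in the tumors of G164 and G184 than in those of G144 and G174.

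Of all 22187 genes tested, 4.01% passed in the heterozygous comparison (604 or 2.72% higher and 286 or 1.29% lower; 752 higher and 148 lower when scaled by library size alone), against 0 of the 10 members. At an unadjusted p under 0.05 there were 2 members, Pgr and Kit, and 25.3% of all genes, and the DESeq2 test called the same number of members, 2. In the homozygous comparison 2 of 10 members passed, both lower, against 13.1% of all genes (5.44% higher and 7.7% lower). In the test of the difference 3 of 10 members passed, all below 0, against 25.1% of all genes (2672 or 12% higher and 2907 or 13.1% lower; 1895 and 3240 when scaled by library size, where the median log2 value of all genes was -0.12 against -0.02 with TMM). The shares of members that passed were thus near those of all genes. The median log2 fold change of the members was 0.16 in the heterozygous and -0.49 in the homozygous comparison, against 0.02 and 0 over all genes tested.

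**Figure D3:**
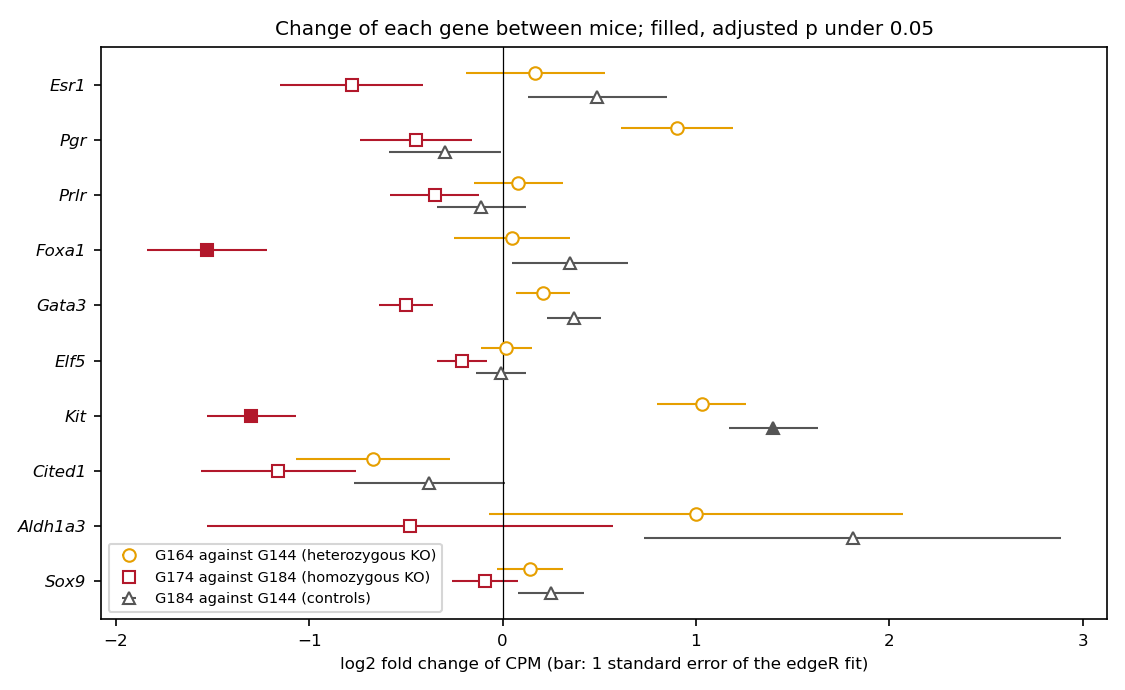
Log2 fold change of each gene in the heterozygous KO, homozygous KO and control comparisons (horizontal axis). Bars are 1 standard error derived from the edgeR test, and symbols are filled where the adjusted p was under 0.05. Filled symbols are seen for Foxa1 and Kit in the homozygous KO and for Kit between the control mice.

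Places of the genes are those of GENCODE M21 on GRCm38, and reads were counted over all exons of a gene. Esr1, the nuclear receptor of estradiol (chr10:4611593-5005614, plus strand), was at 32.4 and 24.3 CPM in G144 (in the order of tumors given above, here and below), 32.1 and 31.9 in G164, 26.1 and 53.6 in G184 and 17.4 and 28.8 in G174. The tumors of the compared mice overlapped in both comparisons, and tumor 9 of G184 held the highest value. The log2 fold change was 0.17 (SE 0.36, adjusted p = 0.806) in heterozygotes and -0.78 (SE 0.37, adjusted p = 0.191) in homozygotes.

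Pgr, the progesterone receptor and itself a target of Esr1 (chr9:8899833-8968611, plus strand), was at 22.2 and 38.4 CPM in G144, 62.6 and 50.2 in G164, 21.2 and 28.1 in G184 and 15.3 and 20.7 in G174. Both tumors of G164 were the highest of the 8, as for 5.26% of all genes, and both of G174 the lowest, as for 9.28%, so neither comparison showed overlap. Of all genes, 60.1% did not overlap between G164 and G144 and 59.8% between G174 and G184. Its log2 fold change was 0.90 (SE 0.29, adjusted p = 0.12) in heterozygotes and -0.45 (SE 0.29, adjusted p = 0.328) in homozygotes, and the difference between them, -1.35, had an adjusted p of 0.052. DESeq2 called the heterozygous change (adjusted p = 0.0279) and the difference (adjusted p = 0.00858). Reads on the other strand made up 4.73% of the counts at Pgr, against 0.11% to 1.13% at the other members.

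Prlr, a cytokine receptor that signals through Jak2 and Stat5 (chr15:10177238-10349180, plus strand), was at 233 and 278 CPM in G144, 288 and 253 in G164, 230 and 245 in G184 and 232 and 139 in G174. Tumor 6 of G174 was lowest, while tumor 1 of the same mouse lay within the range of the controls. For Prlr the log2 fold change was 0.08 (SE 0.23) in heterozygotes and -0.35 (SE 0.23) in homozygotes, with adjusted p-values of 0.854 and 0.327. A gene model named Gm21973 overlaps Prlr on the same strand, and reads shared by both could not be assigned.

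Foxa1, a forkhead factor that opens chromatin for Esr1 (chr12:57540628-57546916, minus strand), was at 12.9 and 19.8 CPM in G144, 16.9 and 16.9 in G164, 14.8 and 27 in G184 and 7.25 and 7.21 in G174. Both G174 tumors lay below the other 6, with a mean of 7.23 ± 0.0287 CPM against 20.9 ± 8.63 in G184 (SD, n = 2 each). In the homozygous comparison Foxa1 fell by 1.53 on the log2 scale (SE 0.31, adjusted p = 0.0249), a level 2.89-fold lower. In heterozygotes the log2 fold change was 0.05 (SE 0.30, adjusted p = 0.943), and the difference of -1.58 passed (SE 0.43, adjusted p = 0.0385). The homozygous call was lost without tumor 9 of G184 (-1.03, adjusted p = 0.107), without tumor 1 or 6 of G174 (adjusted p = 0.0825 and 0.0782) and in a fit of G174 and G184 alone (adjusted p = 0.0647). The difference was lost in 6 of the 8 fits that left out a tumor and with the second run alone (adjusted p = 0.0505).

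Gata3, the zinc finger factor of luminal fate (chr2:9857078-9890034, minus strand), was at 103 and 111 CPM in G144, 116 and 131 in G164, 135 and 142 in G184 and 110 and 86.5 in G174. The 4 tumors of G164 and G184 were above the 4 of G144 and G174, a separation found for 26.5% of all genes. The log2 fold change was 0.21 (SE 0.14, adjusted p = 0.384) in heterozygotes and -0.50 (SE 0.14, adjusted p = 0.0538) in homozygotes, and the difference of -0.71 (SE 0.19) passed with an adjusted p of 0.037. The homozygous change was called by DESeq2 (adjusted p = 0.0136), while the difference was lost in 7 of the 8 fits that left out a tumor, with adjusted p-values up to 0.133, and remained only without tumor 1 of G174. The gene model 9230102O04Rik overlaps Gata3 on the same strand, where stranded counting cannot tell them apart, Gm13256 and 4930412O13Rik overlap it on the other strand, and unstranded counts at Gata3 were 89.5% of the stranded ones.

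Elf5, the ETS factor of alveolar fate that acts downstream of the prolactin receptor (chr2:103411688-103450989, plus strand), was at 213 and 208 CPM in G144, 194 and 233 in G164, 206 and 214 in G184 and 163 and 200 in G174. Both G174 tumors were below both of G184, and the tumors of G144 and G164 overlapped. For Elf5 the log2 fold change was 0.02 (SE 0.13, adjusted p = 0.944) in heterozygotes and -0.21 (SE 0.13, adjusted p = 0.323) in homozygotes.

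Kit, the receptor tyrosine kinase of stem cell factor and a marker of luminal progenitors (chr5:75574916-75656722, plus strand), was at 264 and 356 CPM in G144, 655 and 615 in G164, 673 and 961 in G184 and 286 and 379 in G174. The 4 tumors of G164 and G184 were higher than the 4 of G144 and G174, with means of 635 ± 27.8 and 817 ± 204 CPM against 310 ± 64.5 and 333 ± 65.9 (SD, n = 2 each). In the homozygous comparison Kit fell by 1.30 on the log2 scale (SE 0.23, adjusted p = 0.0177), a level 2.46-fold lower. In heterozygotes its level was 2.05-fold higher, with a log2 fold change of 1.03 (SE 0.23) whose adjusted p of 0.0559 missed the threshold. The difference between both changes, -2.33 (SE 0.33, adjusted p = 0.00483), passed in the main fit and in all 8 fits that left out a tumor. The control mice differed as well: Kit was 2.64-fold higher in G184 than in G144 (log2 fold change 1.40, SE 0.23, adjusted p = 0.0149), where 12.6% of all genes (6.17% higher and 6.4% lower) and, of the members, Kit alone passed. Of the members, 4 did not overlap between the control mice, Gata3, Kit, Aldh1a3 and Sox9, as did not 61.4% of all genes. Both tumors of G184 were the highest of the 8 for Kit and Gata3, as for 9.36% of all genes.

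The homozygous call of Kit was lost without tumor 9 of G184 (-1.01, adjusted p = 0.0879), without tumor 1 of G174 (-1.11, adjusted p = 0.0639) and in a fit of only the mice compared (adjusted p = 0.0568). The call between controls was lost without tumor 6 of G144 (adjusted p = 0.1) or tumor 9 of G184 (adjusted p = 0.0804). In heterozygotes Kit was called by DESeq2 (adjusted p = 0.000506), with scaling by library size (adjusted p = 0.0429) and in a fit of only the mice compared (adjusted p = 0.0373). Kitl, the ligand of Kit, named after its values were seen, was at 111 and 160 CPM in G144, 95 and 108 in G164, 113 and 166 in G184 and 132 and 88.7 in G174, and overlapped between the homozygous KO and its control (log2 fold change -0.34, SE 0.27, adjusted p = 0.432).

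Markers of some other cell types moved with Kit, those of T cells, of macrophages and dendritic cells and of adipocytes. Sums of basal, fibroblast, mast cell and endothelial markers overlapped between the mice high and low in Kit. The endothelial sum was 161 to 209 CPM in G144, 193 to 233 in G164, 223 to 228 in G184 and 149 to 175 in G174. Of 10 T cell markers 5 rose in the heterozygous comparison and 10 fell in the homozygous one, and their sum was 14.7 and 17.2 CPM in G144, 33.8 and 42.6 in G164, 36.4 and 33.8 in G184 and 11 and 11.6 in G174. Of 10 markers of macrophages and dendritic cells 2 rose and 7 fell in these comparisons, with sums of 467 and 613 CPM in G144, 756 and 834 in G164, 842 and 1070 in G184 and 549 and 577 in G174. The sum of 10 adipocyte markers was 52.6 and 67 CPM in G144, 82.1 and 232 in G164, 126 and 98.1 in G184 and 52 and 31.9 in G174. These 3 sums were higher in both tumors of G164 and G184 than in the tumors of the other mice, as was Kit. Of the adipocyte markers 1 rose in the heterozygous and 2 fell in the homozygous comparison, and the difference was below 0 for 8 and above 0 for 1. Of 10 basal markers, with sums of 471 to 592 CPM in G144, 1010 to 1240 in G164, 401 to 1250 in G184 and 178 to 539 in G174, 2 passed for the difference, both below 0. Of 10 fibroblast markers, with sums of 1680 to 1960 CPM in G144, 3180 to 3590 in G164, 1930 to 2370 in G184 and 1310 to 2320 in G174, 2 rose in the heterozygous and 1 fell in the homozygous comparison. The part of these cell types in the values of Kit was not tested. The 8 markers of mast cells, which carry Kit, summed to 1.87 and 2.99 CPM in G144, 5.22 and 7.17 in G164, 6.59 and 1.66 in G184 and 1.02 and 1.69 in G174. Their median log2 fold change was 1.39 in the heterozygous and -1.73 in the homozygous comparison, where 1 of 7 tested fell, and -3.13 for the difference, where 2 passed, and the part of mast cells in the values of Kit was not tested. The summed luminal epithelial markers were 5870 and 6120 CPM in G144, 5260 and 5250 in G164, 5400 and 5540 in G184 and 5770 and 5810 in G174. That sum was lower in the tumors of G164 and G184 than in those of G144 and G174, opposite to Kit. Relative to that sum, the mean level of Kit in G174 was 0.385 of that in G184, against 0.407 in CPM. In bulk tumors fewer cells of a type and less RNA per cell cannot be told apart.

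**Figure D4:**
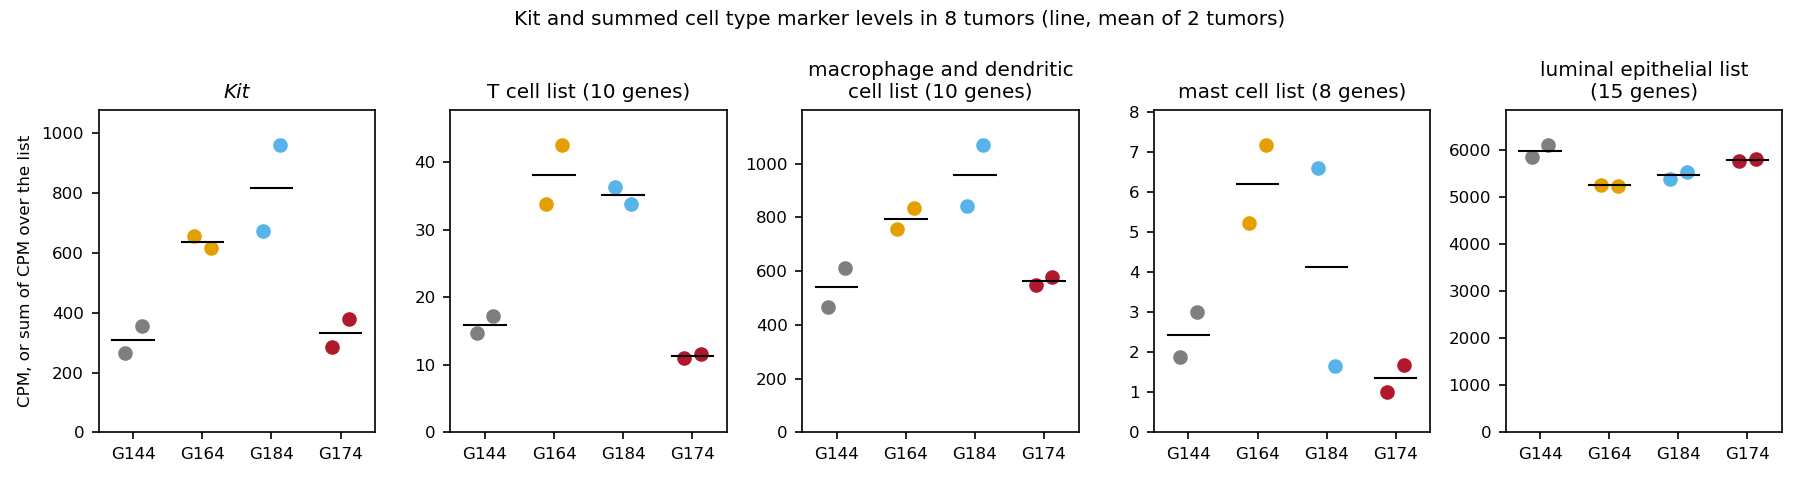
Kit (CPM) and the summed CPM of 4 marker lists in each tumor (points, vertical axes from 0), grouped by mouse, with the mean as a line. T cell and macrophage sums are high in G164 and G184, and mast cell sums stay at or under 7.17 CPM. The luminal epithelial sum lies between 5250 and 6120 CPM and is lower in G164 and G184.

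Cited1, a transcriptional coactivator found in hormone-sensing cells with Esr1 (chrX:102247381-102252181, minus strand), was at 17.5 and 25.8 CPM in G144, 10.8 and 16.4 in G164, 10.4 and 22.9 in G184 and 8.25 and 6.7 in G174. Both G174 tumors were the lowest, and it was the single member with a fitted change below 0 in both comparisons. For Cited1 the log2 fold change was -0.67 (SE 0.40, adjusted p = 0.337) in heterozygotes and -1.16 (SE 0.40, adjusted p = 0.101) in homozygotes. DESeq2 called the latter (adjusted p = 0.0199).

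Aldh1a3, a retinaldehyde dehydrogenase of luminal progenitors (chr7:66390890-66427517, minus strand), was at 14 and 22.6 CPM in G144, 39.6 and 33.3 in G164, 30.6 and 97.6 in G184 and 5.47 and 86.5 in G174. It differed most between tumors of a mouse, 15.8-fold between those of G174. Its log2 fold change was 1.00 (SE 1.07) in heterozygotes and -0.48 (SE 1.05) in homozygotes, with adjusted p-values of 0.6 and 0.786. The homozygous value depended on which tumors were included. It was -3.52 without tumor 6 of G174 and 0.43 without tumor 1 of G174. Without tumor 9 of G184 it was 0.59, and without tumor 6 of G184 it was -1.06.

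Sox9, an HMG box factor of progenitor cells (chr11:112782224-112787760, plus strand), was at 71.2 and 77.5 CPM in G144, 91.6 and 72.3 in G164, 96 and 81 in G184 and 93.8 and 72.6 in G174. Its tumors overlapped in both comparisons, and the log2 fold change was 0.14 (SE 0.17) in heterozygotes and -0.09 (SE 0.17) in homozygotes, with adjusted p-values of 0.652 and 0.755.

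Foxa1, Gata3 and Kit, for which the difference between the KO comparisons passed, are shown with the bases before their RefSeq start site (GRCm38.p6), written 5′ to 3′ in the direction of the gene. Capitals mark matches to the motifs searched. The Foxa1 bases lie at chr12:57546122-57546361 (minus strand), inside the span of the longer GENCODE gene model, and those of Gata3 at chr2:9878601-9878850 (minus strand), also within the span of that gene and over an exon of Gm13256. The Kit bases at chr5:75574737-75574915 (plus strand) end where the GENCODE model of Kit begins.
Foxa1: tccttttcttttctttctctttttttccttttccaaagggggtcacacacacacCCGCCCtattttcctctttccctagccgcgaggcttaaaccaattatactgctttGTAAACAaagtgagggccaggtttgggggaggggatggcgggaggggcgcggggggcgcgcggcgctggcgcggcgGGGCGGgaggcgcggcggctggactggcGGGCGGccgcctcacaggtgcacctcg
Gata3: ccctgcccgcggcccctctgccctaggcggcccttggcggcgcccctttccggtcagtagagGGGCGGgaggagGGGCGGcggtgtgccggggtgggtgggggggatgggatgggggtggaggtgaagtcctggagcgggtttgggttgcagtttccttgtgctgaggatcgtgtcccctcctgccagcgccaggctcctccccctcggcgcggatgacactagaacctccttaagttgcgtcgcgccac
Kit: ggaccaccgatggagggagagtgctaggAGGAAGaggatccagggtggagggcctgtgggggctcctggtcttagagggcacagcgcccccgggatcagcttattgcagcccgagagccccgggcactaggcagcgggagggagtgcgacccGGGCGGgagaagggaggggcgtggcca

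The 250 bases before each start site were searched on both strands in 15 windows of 8 members, and Aldh1a3 and Sox9 had no entry. The GC box GGGCGG was found 3 times at Foxa1, at 2 places at Gata3 and at 1 at Kit, and 32.7% of all 32851 promoter windows hold it. Foxa1 holds the forkhead motif TGTTTAC on the reverse strand, its first base 141 bases before the start, a motif found in 3.17% of all windows, and a window of Prlr holds it too. Kit holds the ETS motif AGGAAG, as do 29.5% of all windows, and the TATA box TATAAA (12.4%) was found in 3 of the 15. The STAT motif TTCNNNGAA (7.02% of windows) was found in a window of Esr1 and a window of Prlr. The palindromic estrogen response element (0.0639% of windows), the palindromic element of the progesterone and glucocorticoid receptors (0.0396%) and the GATA motif AGATAA (9.99%) were found in none of the 15. GC content was 62% at Foxa1, 70% at Gata3 and 70.8% at Kit, against a median of 52.4% over all windows. These matches are a description of letters, and binding was not measured.

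Genes that act with the members were read from lists of 8 pathways. Of all genes tested, 5.44% rose and 7.7% fell in homozygotes, and 2.72% rose and 1.29% fell in heterozygotes. For the difference 12% were above and 13.1% below 0. Of 14 hormone-sensing luminal genes, 3 rose and 2 fell in homozygotes, and the genes that rose make secreted signals or the hormone serotonin. Areg, the EGF family ligand that relays the estrogen signal, was at 8.1 and 16.4 CPM in G144, 4.23 and 4.6 in G164, 0.931 and 0.575 in G184 and 9.44 and 16.8 in G174. It rose by a log2 fold change of 4.12 in homozygotes (SE 0.48, adjusted p = 0.00581), and G184 was as far below the other control G144 (-4.02, SE 0.47, adjusted p = 0.0058). Tph1, the enzyme of serotonin synthesis (log2 fold change 4.33, SE 0.98, adjusted p = 0.0329), and Calca, the gene of calcitonin (5.41, SE 0.68, adjusted p = 0.00666), also rose in homozygotes. Like Areg, Calca passed between the control mice G184 and G144 too. Ly6d, a surface protein of luminal cells, fell by 2.53 (SE 0.62, adjusted p = 0.0414), with 20.8 and 55.9 CPM in G184 and 3.18 and 10.1 in G174. The calls of Areg and Calca held in all 8 fits that left out a tumor, that of Tph1 in 4 and that of Ly6d in 2.

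**Figure D5:**
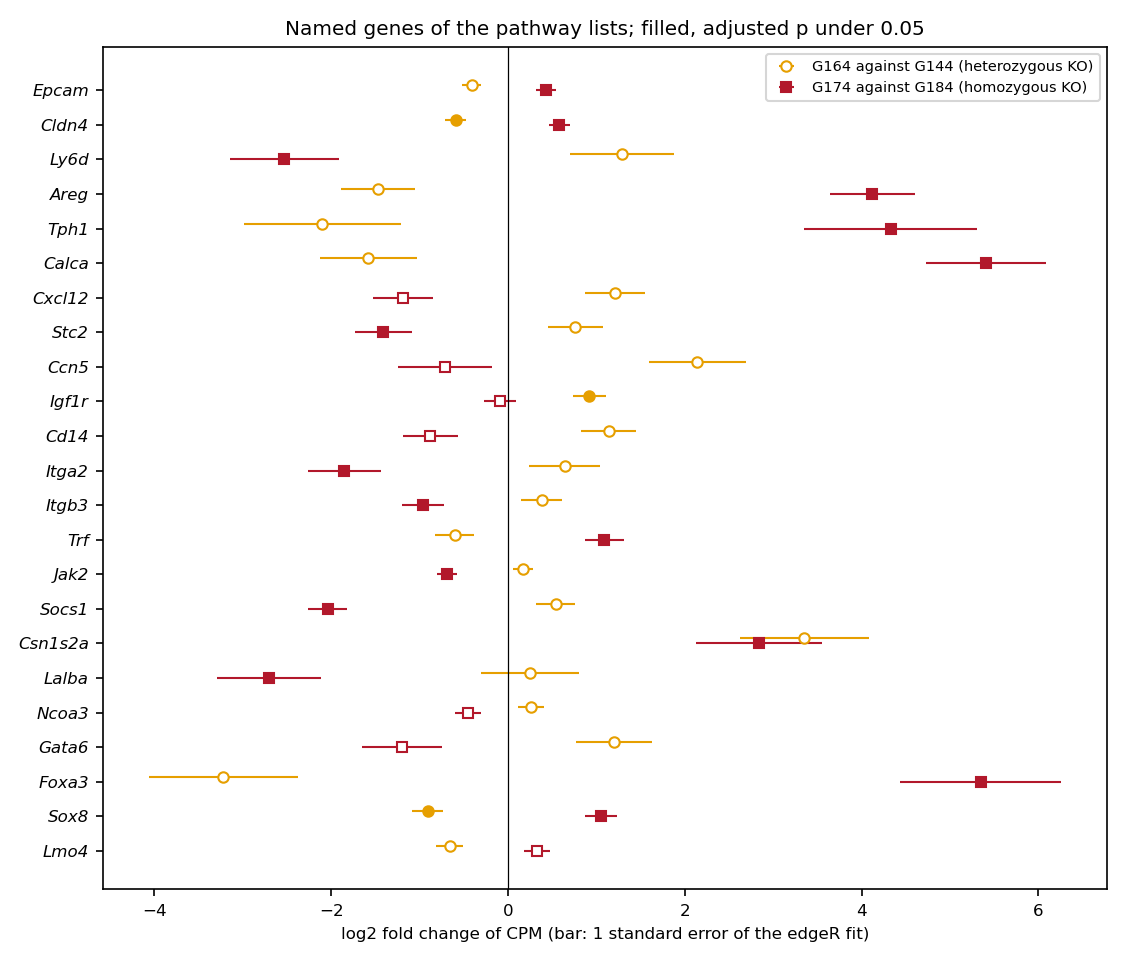
Log2 fold change (horizontal axis) of the named genes of the pathway lists in the heterozygous and homozygous comparisons, with 1 standard error as a bar and filled symbols at an adjusted p under 0.05. Areg, Tph1, Calca and Foxa3 lie furthest to the right in the homozygous KO, Lalba and Ly6d furthest to the left.

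Of 13 estrogen-responsive genes tested, 1 rose and 1 fell in homozygotes, 1 rose in heterozygotes, and for 4 the difference was below 0 and for 1 above. Stc2, a secreted glycoprotein, in homozygotes fell by 1.41 (SE 0.32, adjusted p = 0.0325), with 51.1 and 86.2 CPM in G184 and 20.4 and 31.4 in G174. Igf1r, the IGF receptor, rose in heterozygotes (log2 fold change 0.92, SE 0.19, adjusted p = 0.0469) and also passed between the control mice G184 and G144. Cxcl12, a chemokine (-2.40, SE 0.48, adjusted p = 0.0153), and Ccn5, a matricellular protein (-2.85, SE 0.76, adjusted p = 0.036), passed for the difference but in neither KO comparison. Greb1, an estrogen target named after its values were seen, was at 5.08 to 6.97 CPM in the fl/wt mice and at 1.75 to 2.45 CPM in the fl/fl mice, and differed between the controls (-1.51, SE 0.23, adjusted p = 0.0118), not detectably between a KO and its control (adjusted p = 0.844 and 0.468). Of the progesterone targets, Wnt4 was at 4.85 and 6.87 CPM in G184 and 2.39 and 4.02 in G174 (adjusted p = 0.0956), and Tnfsf11, the gene of RANKL, was at 0.287 to 0.96 CPM in all tumors.

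Of 15 luminal progenitor genes, 4 fell and 1 rose in homozygotes. The summed level of the list went the other way, at 18500 and 18700 CPM in G184 and 23700 and 27600 in G174. Itga2 fell by 1.85 (SE 0.41, adjusted p = 0.0306) and Itgb3 by 0.96 (SE 0.24, adjusted p = 0.0413), both integrin chains used to sort progenitor cells. Trf, the gene of transferrin, rose by 1.09 (SE 0.22, adjusted p = 0.0249), from 6460 and 6920 CPM in G184 to 15100 and 13300 in G174. Cd14, also a gene of macrophages, passed for the difference (-2.02, SE 0.43, adjusted p = 0.0187). Both Trf and Cd14 also passed between the control mice G184 and G144.

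In the prolactin receptor pathway 2 of 9 genes tested fell in homozygotes, and Prl itself had no counts. Jak2, the kinase bound to the receptor, fell by 0.69 (SE 0.11, adjusted p = 0.0117), from 137 and 162 CPM in G184 to 94.1 and 90.9 in G174. Socs1, an inhibitor of Jak kinases that interferons also induce, fell by 2.04 (SE 0.22, adjusted p = 0.0045) and held in all 8 fits that left out a tumor. Between the control mice G184 and G144, Jak2 and Socs1 passed as well. Stat5a and Stat5b, named after their values were seen, had adjusted p-values of 0.489 and 0.502 in homozygotes. Of 8 milk genes, Lalba, the gene of alpha-lactalbumin, fell by 2.70 (SE 0.59, adjusted p = 0.0303) and the casein gene Csn1s2a rose by 2.84 (SE 0.71, adjusted p = 0.0441), with 22.1 CPM in tumor 1 of G174 and 4.11 in tumor 6.

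Among other steroid receptors and cofactors, Ncoa3, a coactivator, passed for the difference but in neither KO comparison (-0.71, SE 0.21, adjusted p = 0.0497). Of 14 partners and paralogs of the members that were tested, 3 rose in homozygotes and 1 fell in heterozygotes. Foxa3, a paralog of Foxa1, rose by 5.35 (SE 0.91, adjusted p = 0.0154), from 0.197 and 0.202 CPM in G184 to 11.8 and 4.65 in G174. In this comparison the paralogs moved in opposite directions. Foxa3 also passed between the control mice G184 and G144, where Foxa1 did not (adjusted p = 0.461). Sox8, a relative of Sox9, rose in homozygotes (log2 fold change 1.05, SE 0.18, adjusted p = 0.017) and in heterozygotes fell by 0.91 (SE 0.18, adjusted p = 0.0467). Lmo4, a LIM-only cofactor (0.98, SE 0.21, adjusted p = 0.0195), and Gata6, a paralog of Gata3 with a mean of 0.549 CPM (-2.40, SE 0.62, adjusted p = 0.0327), passed for the difference but in neither KO comparison. Among 15 epithelial genes 2 rose in homozygotes, Epcam (0.43, SE 0.11, adjusted p = 0.0455) and the claudin gene Cldn4 (0.58, SE 0.12, adjusted p = 0.0276). In heterozygotes Cldn4 fell by 0.59 (SE 0.12, adjusted p = 0.0478), and it also passed between the control mice G184 and G144.

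Several of these calls were lost when 1 tumor was left out, in places a tumor of a mouse outside the comparison. Such a fit has 1 tumor left in that mouse, and the heterozygous call of Abi1, the targeted gene, was itself lost in most of these fits. Without tumor 9 of G184, Areg, Calca and Socs1 kept their homozygous call and the other pathway genes named for one lost it. The homozygous call held in 7 of the 8 fits that left out a tumor for Jak2, in 6 for Foxa3 and Itga2, in 5 for Trf and Sox8, in 4 for Stc2, Lalba and Cldn4, and in 1 for Itgb3, Csn1s2a and Epcam. The heterozygous call held in 2 of 8 for Igf1r, in 1 for Cldn4 and in 0 for Sox8. The call of the difference held in 6 of 8 for Cxcl12, in 4 for Cd14 and Lmo4, in 2 for Ccn5 and in 1 for Gata6 and Ncoa3.

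The protein-coding genes most like each member over the 8 tumors were sought among 11447 genes with a mean of at least 5 CPM, by Pearson's r of log2 CPM. The tumors come in pairs from 4 mice, so r is a description. Kit was most like Ifi204 (r = 0.994), an interferon-inducible gene, and Fcgr1 (r = 0.992), an Fc receptor of macrophages. Fcgr1 was at 6.11 and 7.78 CPM in G144, 17 and 14.7 in G164, 18.4 and 28.1 in G184 and 5.54 and 7.69 in G174. Foxa1 was most like Dnajc3 (r = 0.985) and Gipc2 (r = 0.983), Gata3 most like Tmem63a (r = 0.984) and Utrn (r = 0.983), and Aldh1a3 most like Tm4sf1 (r = 0.98) and Nrcam (r = 0.979). Pgr was most like Gm16485 (r = 0.983), whose gene lies next to Pgr on the same strand, and Acsbg1 (r = 0.949). Esr1 was most like Glud1 (r = 0.979), Cited1 most like 4833439L19Rik (r = 0.966), Prlr most like Glt28d2 (r = 0.959), Elf5 most like Sytl4 (r = 0.952) and Sox9 most like Epsti1 (r = 0.931). A high r says nothing of the size of a change. Glud1 stayed at 107 to 127 CPM while Esr1 ran from 17.4 to 53.6. Likewise 4833439L19Rik stayed at 61.4 to 80.6 CPM while Cited1 ran from 6.7 to 25.8. In contrast Gipc2 ran from 3.41 to 18.8 CPM and Foxa1 from 7.21 to 27. Without tumor 6 of G174 the r of Prlr and Glt28d2 was 0.805, and without tumor 1 of G174 that of Elf5 and Sytl4 was 0.804. Among the members, Foxa1 and Cited1 were most alike (r = 0.84), followed by Gata3 and Kit and by Esr1 and Aldh1a3 (r = 0.76 each), and Elf5 and Sox9 were least alike (r = -0.62).

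With mice as the units, 2 Cre+ against 2 Cre- mice, 0 of 23281 genes and 0 of the 10 members passed by edgeR. Abi1, the targeted gene, did not pass either (log2 fold change -1.7, SE 0.97). The lack of calls here therefore does not show that the members are unchanged. At an unadjusted p under 0.05 there were 191 genes and 0 members, and DESeq2 called 25 genes and 0 members. The 4 Cre+ tumors overlapped with the 4 Cre- tumors for 10 of 10 members, as for all but 1.8% of genes. The largest fitted change was that of Cited1, -0.81 (SE 0.37), with an unadjusted p of 0.0843. Because the homozygous minus the heterozygous change sets G144 and G174 against G164 and G184, it cannot be told apart from the difference between younger and older mice, and 2 of 10 members, Gata3 and Kit, separated these mice without overlap, as did 26.5% of all genes.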

How the data were processed

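Per the labels and the methods of the study, the authors extracted total RNA, prepared stranded libraries after removal of ribosomal RNA, read each tumor on 4 lanes in 2 runs, converted base calls with bcl2fastq and aligned reads to GRCm38/mm10 with STAR, which also counted them. The deposited values are raw counts per gene, unstranded and for each strand. The version of each tool and the annotation release: not given in the sources used here. Sums per mouse, made by the authors, equal the unstranded counts at 55381 genes and were not used further.

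Reverse-strand counts of 64 files were summed per tumor, since the forward strand held 4.76% to 6.8% of stranded counts. Between 47.98% and 52.27% of reads fell in genes, and the rest was left out. filterByExpr kept 22187 of 55385 genes. edgeR 4.0.16 (R 4.3.3) fitted all 8 tumors with TMM scaling and the quasi-likelihood test, with Benjamini-Hochberg adjustment over all genes and a threshold of 0.05. Each SE was derived from that test, as the absolute log2 fold change divided by the square root of its F statistic. Counts per mouse were compared by Cre status over 23281 genes. Symbols and places come from GENCODE M21, promoters from RefSeq. Members and lists were chosen with earlier results of these data known. From each pathway list up to 4 genes past the threshold with the largest change are named. Of the genes this rule names, 1 is not reported here. Alternatives were DESeq2 1.42.0 as the test or for size factors, unstranded counts, no filter, each run alone, library size in place of TMM, sums without scaling, only the mice compared, and leaving out each tumor or mouse.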

Additional observations from a re-analysis of the deposited data

Results flagged for a closer look

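For 3 members the change in homozygotes differed from that in heterozygotes by a test of the difference itself (edgeR, adjusted over all genes), with Foxa1 at -1.58 (adjusted p = 0.0385), Gata3 at -0.71 (adjusted p = 0.037) and Kit at -2.33 (adjusted p = 0.00483) on the log2 scale. When a tumor was left out, Kit passed in 8 of 8 fits, Foxa1 lost its call in 6 and Gata3 in 7. The difference passed for 25.1% of all genes tested, and it sets the older mice G164 and G184 against the younger G144 and G174, so age and Abi1 status cannot be told apart in it. Groups held 2 tumors each, so no search for a tumor far from its group was made.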

How the results depend on the processing

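No paired analysis was made, since the labels do not say that a tumor number stands for the same gland in different mice. Leaving out a tumor leaves 1 in that mouse, which is then assumed to vary like the others. Genes called in the heterozygous comparison numbered 2614 without a filter, 2802 with DESeq2 (1398 higher, 1404 lower), 1394 in a fit of only the mice compared, and 16 to 1087 when a tumor was left out. In the homozygous comparison they numbered 4575, 4577, 980 and 532 to 2442. Between the controls DESeq2 called 4484, the fit of only the mice compared 1534, and leaving out a tumor 205 to 3164, and the difference gave 2079 to 4817. By Cre status 4 genes passed without a filter, 25 with DESeq2, and 0 to 4 without a mouse. Members called in heterozygotes numbered 1 with library size, 2 without a filter, 2 with DESeq2, 1 in the fit of only the mice compared and 0 to 1 without a tumor. In homozygotes these were 5 without a filter, 4 with DESeq2, 0 in the fit of only the mice compared and 0 to 3 without a tumor (0 without tumor 9 of G184). The difference gave 1 to 3 and the controls 0 to 1.

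Changes of sign of a log2 fold change were found for members, and none of these members passed in that comparison in the main test. Without 1 tumor, the heterozygous values ran from -0.12 to 0.13 for Elf5, -0.02 to 0.38 for Esr1, -0.25 to 0.39 for Foxa1, -0.05 to 0.21 for Prlr and -0.05 to 0.30 for Sox9. The homozygous values ran from -3.52 to 0.59 for Aldh1a3 and -0.28 to 0.11 for Sox9, and the difference from -0.90 to 0.17 for Cited1. Between controls they ran from -1.04 to 0.07 for Cited1, -0.02 to 0.01 for Elf5, -0.10 to 0.90 for Esr1, -0.13 to 0.71 for Foxa1, -0.65 to 0.15 for Pgr and -0.23 to 0.03 for Prlr. By Cre status, without 1 mouse, they ran from -0.60 to 1.21 for Aldh1a3, -0.22 to 0.03 for Elf5, -0.33 to 0.06 for Gata3, -0.75 to 0.66 for Kit, -0.59 to 1.04 for Pgr, -0.41 to 0.13 for Prlr and -0.12 to 0.16 for Sox9, the last -0.01 with unstranded counts. Between controls Elf5 was 0.02 with library size, 0.01 in the first run and 0.15 in unscaled sums, where Prlr was 0.06. In heterozygotes unscaled sums gave -0.05 for Elf5 and -0.01 for Foxa1. The cause of these moves was not tested. Each run alone, at lower depth, called 684 and 702 genes in heterozygotes, 2748 and 2639 in homozygotes, and 4 and 2 members for the difference.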
